A study of Mus musculus with 6 samples.

Results

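Classical Monocytes 1 is 1 of the classes that the authors' deposited annotation gives to cells of the newborn mouse lung. Its members were taken as every cell with that class name in the female and the male library of postnatal day 1, with no choice by level of any gene. There were 1007 such cells, 560 in the female and 447 in the male library, of 22821 day 1 cells with a class and 55882 in the whole series. No cell of the 4 day 21 libraries carried the name. The class nearest in name, Classical Monocytes 2, held 274 female and 335 male cells, 609 in all.

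Monocytes are made in bone marrow, and before and around birth also in fetal liver, and enter tissue from the blood. In the mouse, classical monocytes carry the surface protein Ly6C and the chemokine receptor Ccr2, through which they follow the chemokine Ccl2 out of marrow and into tissue, where they can become macrophages. Nonclassical monocytes have lost most Ly6C and Ccr2, carry the fractalkine receptor Cx3cr1, need the transcription factor Nr4a1 and patrol the inner face of vessels, of which the lung has many.

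The study set female against male C57BL/6N wild-type mice in room air and after neonatal hyperoxia, and measured RNA of single live cells from dissociated lung with a droplet method that reads transcript 3′ ends. The day 1 libraries used here came from room air mice (21% oxygen), 1 library of each sex, each from lung tissue pooled from 3 mice. The 4 libraries of day 21 were 1 female and 1 male in room air and 1 female and 1 male exposed to 95% oxygen over days 1 to 5, then kept in room air. Each class was thus seen in 2 pools, while female against male has 1 library on each side, where a sex cannot be told apart from its pool, its library or its handling. The authors made the classes from the same cells and genes, so a difference between classes is a description, given for each library with its counting error and with no p-value. The day 1 libraries held 160805823 (female) and 163649658 (male) UMIs, that is, counted molecules. Cells of Classical Monocytes 1 had a median of 10296 UMIs and 2927 genes in the female library and 9794 UMIs and 2765 genes in the male, with a median of 2.88% and 2.76% of UMIs from mitochondrial genes. Barcodes shared with another library were 0 to 2 per pair of libraries, and none had the same class in both. Levels below are CPM, UMIs of a gene scaled to all UMIs of the class in a library, and intervals are exact 95% intervals.

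Classical Monocytes 1 made up 4.85% (4.47% to 5.26%) of female and 3.96% (3.61% to 4.34%) of male day 1 cells with a class, and Classical Monocytes 2 made up 2.37% (2.10% to 2.67%) and 2.97% (2.66% to 3.30%). Among monocytes of all 3 monocyte classes its share was 64.7% (61.4% to 67.9%) in the female and 56.4% (52.8% to 59.9%) in the male library. These intervals cover the counting of cells only, and cells are not replicates. With 1 pool of each sex, they do not show whether the sexes differ.

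Both markers that define classical monocytes were present in the class. Ly6c2, which encodes Ly6C, stood at 836 CPM in the female and 1434 CPM in the male library, against 1143 and 1634 CPM in Classical Monocytes 2. It stood at 161 and 447 in the small class Nonclassical Monocytes (32 and 11 cells) and at 30.9 and 45.2 in Transient Macrophages. In female Nonclassical Monocytes 7 of the 32 cells had a Ly6c2 UMI, and 1 cell held 38.1% of these UMIs. Ccr2 stood at 784 and 973 CPM, against 882 and 1051 in Classical Monocytes 2, 261 and 198 in Nonclassical Monocytes, where 60.3% and 47.4% of its UMIs lay in 1 cell, and 441 and 462 in Transient Macrophages. In both libraries the 2 classical classes were the highest myeloid classes for Ly6c2, and Classical Monocytes 1 was below Classical Monocytes 2 for both genes. For Ccr2 the small class Interstitial Macrophages 2 (13 and 17 cells) was higher than either, at 1087 and 1377 CPM.

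Counted by cell, 75.0% of female and 88.1% of male members had a Ly6c2 UMI, and 84.1% and 92.4% had a Ccr2 UMI. After every cell was thinned to 2000 UMIs, which left out 1 female cell, the shares were 54.6% and 68.9% for Ly6c2 and 64.6% and 74.5% for Ccr2. In gCap, a capillary endothelial class that should lack both genes, 1.26% and 1.37% of cells had a Ly6c2 UMI and 1.60% and 1.54% a Ccr2 UMI at median depths of 5642.5 and 5203 UMIs. After thinning these shares were 0.411% and 0.386%, and 0.565% and 0.515%, far under those of the monocytes. Ly6c2 is not a marker of monocytes alone in these libraries, since 96.5% and 97.5% of Neutrophils Ngp+ had a UMI of it, while Ccr2 was found in 2.06% and 5.59% of those cells. Ly6c2 also has a near copy, Ly6c1. Of the 451 windows of 50 bases in the last 500 bases of the Ly6c2 transcript, 90 (20.0%) occur in the copy. Reads from such windows could fit both genes, and their effect on the Ly6c2 level was not tested.

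**Figure D1:**
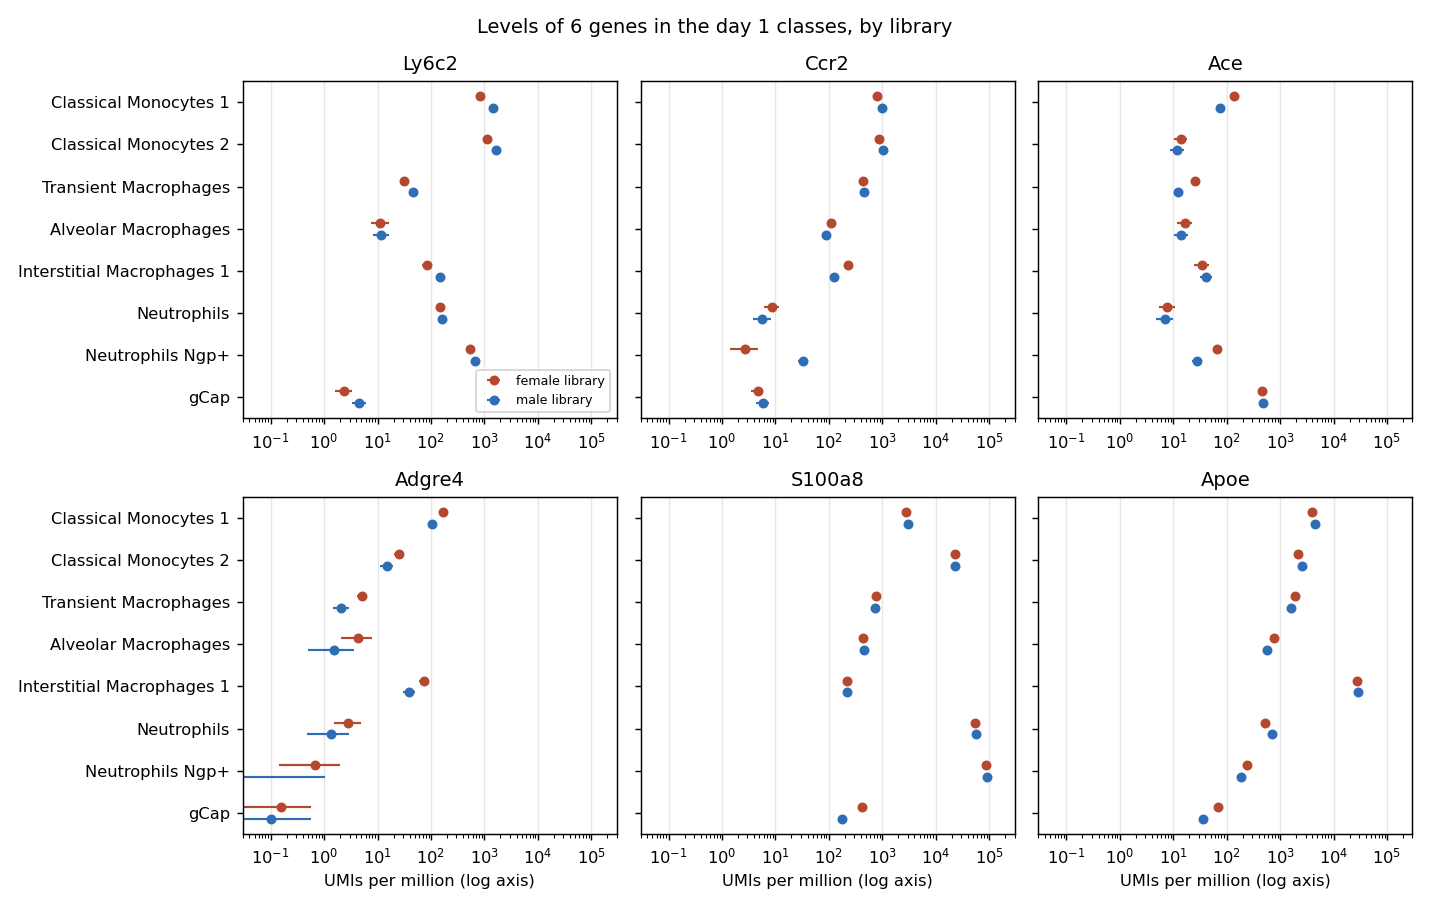
Level of Ly6c2, Ccr2, Ace, Adgre4, S100a8 and Apoe in CPM (log axis) in 8 classes of day 1 cells; each point is 1 library (female red, male blue), bars are exact 95% counting intervals, and a level of 0 has a bar and no point. Classical Monocytes 1 lies beside Classical Monocytes 2 for Ly6c2 and Ccr2, above it for Ace and Adgre4, and at 2841 and 3080 CPM of S100a8 below its 23017 and 22648.

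Classical Monocytes 1 differed from Classical Monocytes 2 in 2 directions. Genes of nonclassical monocytes (Ace, Adgre4, Treml4, Cd300e, Eno3, Cx3cr1) were several times higher in it, and genes that neutrophils hold in quantity (S100a8, S100a9, the stefin A genes, Lcn2, Retnlg) were many times lower. Of 8350 genes that reached 50 UMIs, both classes summed, in each library, 124 (1.49%) were at least 2-fold higher in both libraries and 53 (0.635%) at least 2-fold lower. A gene could reach the UMI limit through the class where it is high, so counts of list members here and below describe the members measured and support nothing further. The median log2 ratio of all genes was 0.07 in the female and 0.05 in the male library. Over 7604 genes the log2 levels of the 2 classes had a Pearson correlation of 0.953 (female) and 0.959 (male), a description across genes that are not independent, beside 0.854 and 0.843 against Transient Macrophages and 0.868 and 0.828 against Interstitial Macrophages 1.

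**Figure D2:**
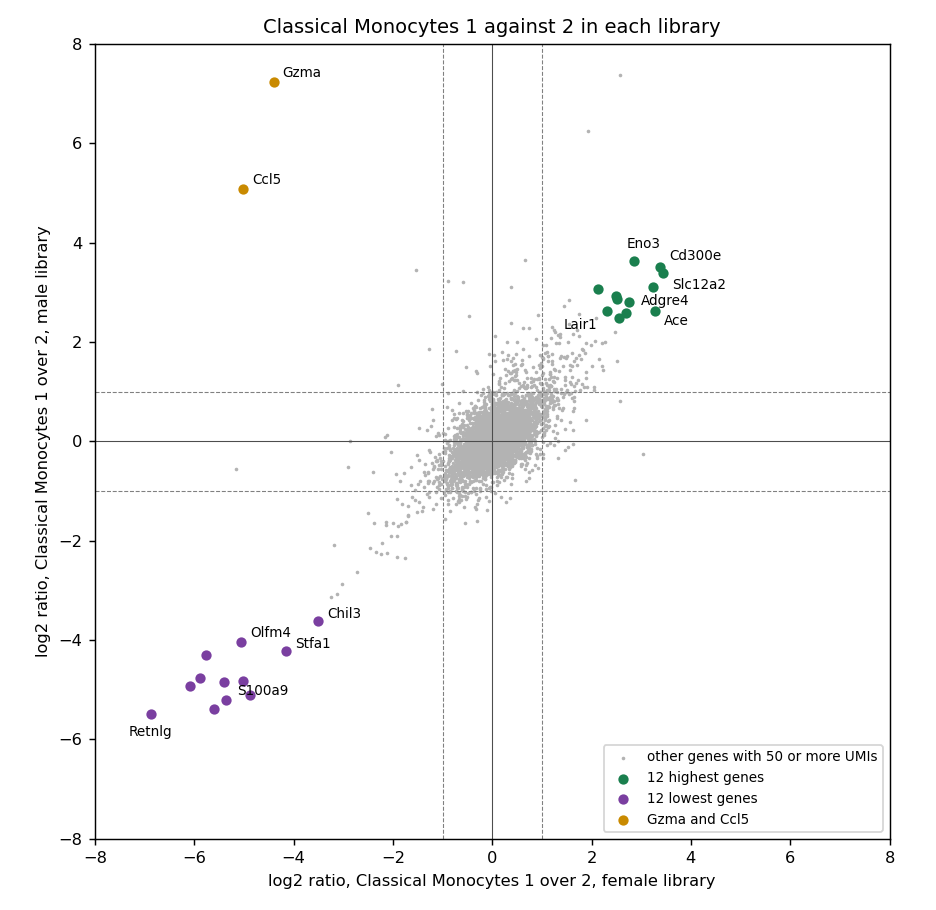
Each point is 1 gene, placed by its log2 ratio of Classical Monocytes 1 over Classical Monocytes 2 in the female (horizontal) and male library (vertical), with dashed lines at the 2-fold limit. Most genes lie near 0, 12 named genes lie at or below -3.51 in both libraries, and Gzma and Ccl5 have opposite signs in the 2 libraries.

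The alarmins S100a8 and S100a9, calcium-binding proteins that neutrophils and inflammatory monocytes hold in their cytoplasm, were among the lower genes and stood at high levels in Classical Monocytes 2. S100a9 stood at 264 and 223 CPM (female, male) in Classical Monocytes 1 and at 10766 and 8255 CPM in Classical Monocytes 2, log2 ratios of -5.35 and -5.21. S100a8 stood at 2841 and 3080 against 23017 and 22648 CPM, log2 ratios of -3.02 and -2.88. Both were higher still in Neutrophils, with S100a9 at 79500 and 83040 CPM. For S100a9 the capillary class gCap held 582 and 211 CPM, as much as Classical Monocytes 1. Of thinned members 15.6% and 13.9% had a UMI of it, against 16.9% and 12.9% of gCap cells. By share of cells the class thus did not stand above gCap. Cells of gCap were shallower, and 1 of them in the female library held 664 UMIs of S100a9, so gCap is no exact measure of background RNA. The richest 10% of thinned members held 85.7% and 89.7% of their S100a9 UMIs. How much of the S100a9 level in the class is background was not tested, so its ratio does not size the difference between the classes. S100a8 was found in more of the class than of gCap, in 55.3% and 56.2% of thinned cells against 12.5% and 11.1%.

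The stefin A genes encode small inhibitors of cysteine proteases and lie side by side on chromosome 16 (GRCm38, from Stfa2l1 at 36156811 to Stfa3 at 36455392). Of 10 members of that list, 7 had enough UMIs and 6 were at least 2-fold lower in both libraries, with medians of -4.88 and -4.75 on the log2 scale. Stfa1 stood at 582 and 533 CPM against 10383 and 9976, Stfa2l1 at 47.7 and 32.7 against 1414 and 1148, and Cstdc4 at 71.4 and 62.7 against 2323 and 1780. The member that did not pass was Cstb, which lies elsewhere in the genome and stood at 273 and 290 against 294 and 273 CPM. These genes are close copies of each other, so counts of single members are uncertain where reads fit more than 1.

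The promoters below are those of 3 of the 12 lowest genes and 1 of the 12 highest, shown because they carry the letters searched for here. They are the 250 bases before the RefSeq start in GRCm38.p6, written 5′ to 3′ on the gene's strand, with capitals on matches to TTGCNNAA, the core letters bound by C/EBP factors, which act in myeloid cells. They lie at chr3:90695722-90695971 (minus strand) for S100a9, chr16:36276898-36277147 (plus) for Stfa1, chr16:48872358-48872607 (plus) for Retnlg and chr17:55749734-55749983 (plus) for Adgre4.
S100a9: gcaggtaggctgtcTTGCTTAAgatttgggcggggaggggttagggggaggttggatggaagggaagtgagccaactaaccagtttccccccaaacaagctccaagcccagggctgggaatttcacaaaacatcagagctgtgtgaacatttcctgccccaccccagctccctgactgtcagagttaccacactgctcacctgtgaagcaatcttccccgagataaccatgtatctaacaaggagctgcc
Stfa1: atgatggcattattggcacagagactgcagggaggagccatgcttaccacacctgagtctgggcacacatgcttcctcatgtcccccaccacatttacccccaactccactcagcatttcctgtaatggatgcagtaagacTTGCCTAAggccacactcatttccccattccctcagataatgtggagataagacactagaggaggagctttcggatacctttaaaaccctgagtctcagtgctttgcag
Retnlg: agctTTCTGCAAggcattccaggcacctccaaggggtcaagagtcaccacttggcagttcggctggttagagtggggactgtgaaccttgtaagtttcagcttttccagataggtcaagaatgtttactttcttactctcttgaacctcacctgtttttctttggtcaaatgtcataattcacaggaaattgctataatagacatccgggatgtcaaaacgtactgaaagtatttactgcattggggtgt
Adgre4: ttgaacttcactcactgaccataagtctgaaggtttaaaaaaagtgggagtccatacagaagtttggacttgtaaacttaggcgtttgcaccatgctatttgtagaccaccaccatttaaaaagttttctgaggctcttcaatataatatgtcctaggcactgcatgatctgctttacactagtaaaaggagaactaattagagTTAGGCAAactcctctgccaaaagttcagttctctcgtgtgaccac
Searched on both strands from 250 bases before to 50 after the start, TTGCNNAA occurred in 5 of the 11 lowest genes that have a promoter in the table (Csta3, Cstdc5, Retnlg, S100a9, Stfa1), in 2 of 9 of the highest (Adgre4, Lair1) and in 3298 of 27025 genes (12.2%). GAGGAA, the core of PU.1 sites, occurred in 7 of 11, 5 of 9 and 31.3% of genes, and AAAGGTCA, a site of NR4A factors, in none of either set and in 1.70% of genes. The stefin A promoters share ancestry and are not independent. A match is a description of letters, not a bound site or a cause, and a lack of one says nothing of the factor. By their letters TTGCNNAA and GAGGAA cannot overlap, and AAAGGTCA can share its A bases with the end of either.

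Other genes of neutrophils were lower as well. Of 12 neutrophil markers, S100a8, S100a9 and Retnlg among them, 11 had enough UMIs, 8 were at least 2-fold lower and none higher, with medians of -2.15 and -1.64. The CXC chemokine receptor Cxcr2 stood at 32.1 and 44.7 CPM against 168 and 140, and the collagenase Mmp8 at 186 and 277 against 668 and 874. The granulocyte colony-stimulating factor receptor Csf3r did not pass, at 96.4 and 97.4 against 158 and 117 CPM. Summed over the 12 genes, the level was 3575 and 3920 CPM in Classical Monocytes 1, 36006 and 32729 in Classical Monocytes 2, of which S100a8 and S100a9, described above, made up most. Ly6g, the defining surface marker of mouse neutrophils, was at 0.322 and 0 CPM in the first and 7.11 and 4.16 in the second, against 104 and 119 in Neutrophils.

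Retnlg, which encodes a resistin-like protein of neutrophils, had the lowest ratio of all named genes, at 6.12 and 7.56 CPM against 768 and 359. In Classical Monocytes 1 it was at background, in 1.25% and 1.34% of thinned cells against 2.47% and 2.96% of gCap, so its level there cannot be told apart from background. In Classical Monocytes 2 it was found in 21.5% and 13.7% of cells, with up to 362 and 311 UMIs in 1 cell, and that class also held more cells among the 8% with the highest doublet scores (17.2% of its female and 10.7% of its male cells, against 7.68% and 6.71% of Classical Monocytes 1). Without those cells the log2 ratio of Retnlg was -3.34 and -3.26 in place of -6.88 and -5.49, and that of Stfa2 -3.54 and -3.04 in place of -6.08 and -4.92. S100a9 was as low without them, at -5.23 and -5.42, as was Stfa1, at -4.37 and -4.29. The size of the Retnlg and Stfa2 ratios thus rested on a minority of Classical Monocytes 2, while that of S100a9 and Stfa1 did not.

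Genes of granules, which myeloid precursors load before they leave the marrow, showed the same direction for some members. Of a list of 14, 9 had enough UMIs and 5 were at least 2-fold lower (Fcnb, Ngp, Lcn2, Cebpe, Chil1), with medians of -1.93 and -1.37. Cebpe among them encodes a transcription factor, not a granule protein, and is counted again below. Lcn2, an iron-scavenging protein of granules, stood at 88.3 and 110 CPM against 772 and 923. Of the proteases, Elane stood at 7.90 CPM in the female and 30.2 in the male library, against 61.7 and 43.4, with 45.9% of its male UMIs in 1 cell, and Prtn3 at 61.4 and 123, against 115 and 102. No ordering of the 2 classes held in both libraries for Prtn3.

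The classical markers beside Ly6c2 and Ccr2 did not move as 1 group. Of 12 such markers all had enough UMIs, none was 2-fold higher, and Chil3 alone was 2-fold lower, with medians of -0.56 and -0.58. Chil3, a chitinase-like lectin of inflammatory monocytes, stood at 129 and 136 CPM against 1472 and 1671, log2 ratios of -3.51 (-3.62 to -3.40) and -3.62 (-3.74 to -3.51). The proteoglycan Vcan stood at 339 and 482 against 710 and 853. Plac8, a small cysteine-rich protein, went the other way, at 4577 and 5885 against 2703 and 3918 CPM, as did the membrane protein Ms4a4c, at 290 and 447 against 182 and 263. Lysozyme Lyz2 was near equal, at 11283 and 11997 against 12307 and 14752 CPM.

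Genes known from nonclassical monocytes stood out among the higher genes. Of 12 nonclassical markers 11 had enough UMIs, 8 were at least 2-fold higher and none lower, with medians of 2.05 and 1.85. Ace, angiotensin-converting enzyme, stood at 138 and 76.4 CPM against 13.9 and 12, log2 ratios of 3.27 (2.89 to 3.76) and 2.63 (2.23 to 3.15). Adgre4, an adhesion receptor of the EMR family, stood at 170 and 107 against 25 and 14.8 CPM, log2 ratios of 2.75 and 2.81. The receptor-like gene Treml4 stood at 129 and 84.3 against 22.2 and 11.2, and Cx3cr1 at 148 and 80.7 against 41.3 and 22.1 CPM. For these 4 genes both libraries of Classical Monocytes 1 were above both of Classical Monocytes 2, and the female library was the higher of the 2 in both classes. Nr4a1 did not pass, at 279 and 141 against 155 and 100 CPM, nor did Itgal, a chain of the integrin LFA-1, at 357 and 320 against 209 and 199.

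Ace is also a gene of endothelium, and stood at 458 and 468 CPM in gCap, of which 83.2% and 81.2% of cells had a UMI. Endothelial markers were low in the class: the 10 genes summed to 485 and 239 CPM, against 299 and 143 in Classical Monocytes 2, and Gpihbp1, a marker of capillaries, was at 19.3 and 11.2 CPM against 923 and 1209 in gCap. Adgre4, Treml4 and Cx3cr1, by contrast, were all but absent from gCap, at 0.157 and 0.102, 0.786 and 0, and 2.59 and 0.816 CPM. The part of endothelial RNA in the Ace ratio was not tested.

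The 12 genes with the highest mean ratio against Classical Monocytes 2 were Cd300e, Slc12a2, Eno3, Dusp2, Ace, Adgre4, Hes1, Treml4, Tmem37, Ccnd2, Ifi205 and Lair1. Without cells that had more UMIs of the nonclassical list than of Ly6c2 and Ccr2, a selection that uses this gene, Cd300e turned to a log2 ratio of -0.43 in the male library, with 0.55 in the female. Slc12a2, a sodium, potassium and chloride transporter, stood at 155 and 89.0 CPM against 13.9 and 8.06, log2 ratios of 3.44 and 3.39. Dusp2, a phosphatase that acts on MAP kinases, stood at 64.8 and 41.5 against 6.54 and 4.42, and Lair1, an inhibitory receptor for collagen, at 85.1 and 83.7 against 16.8 and 13.3. The Notch target Hes1 stood at 56.4 and 38.8 against 9.67 and 4.68, and the cell cycle gene Ccnd2 at 39.8 and 31.7 against 8.82 and 3.38 CPM. Most of these were higher again in the 43 cells of Nonclassical Monocytes, with Slc12a2 at 640 and 270, Lair1 at 364 and 281 and Ace at 433 and 177 CPM. Ifi205, an interferon-inducible gene, stood at 12.1 and 22.5 CPM in Classical Monocytes 1 and at 11.5 and 0 in Nonclassical Monocytes. The latter class held 261005 and 96181 UMIs in all, so its Ifi205 levels rest on few UMIs and no order is read.

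Genes with at least 50 UMIs in Classical Monocytes 1 in each library were also ranked against all 6 other myeloid classes of at least 50 cells. The rank was by the smallest log2 ratio over those classes and both libraries, and the 10 highest were named. They were chosen by these ratios, so their number past the limit describes the choice and supports nothing further. Of the 10, 5 were at least 2-fold higher than every such class in both libraries. They were Eno3, a muscle-type enolase (smallest log2 ratio 2.37), Adgre4 (1.18), Nxpe4 (1.17), the sphingosine-1-phosphate receptor S1pr5 (1.16), which has a known part in the exit of nonclassical monocytes from marrow, and Treml4 (1.14), with Ly6i just under the limit. Eno3 stood at 74.6 and 31.0 CPM, S1pr5 at 29.5 and 20.4, Nxpe4 at 80.7 and 50.4 and Ly6i at 33.4 and 37.4. Of the same genes, Eno3 stood at 238 and 72.8, Nxpe4 at 142 and 114 and S1pr5 at 76.6 and 52.0 CPM in Nonclassical Monocytes, which was too small to enter the comparison.

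**Figure D3:**
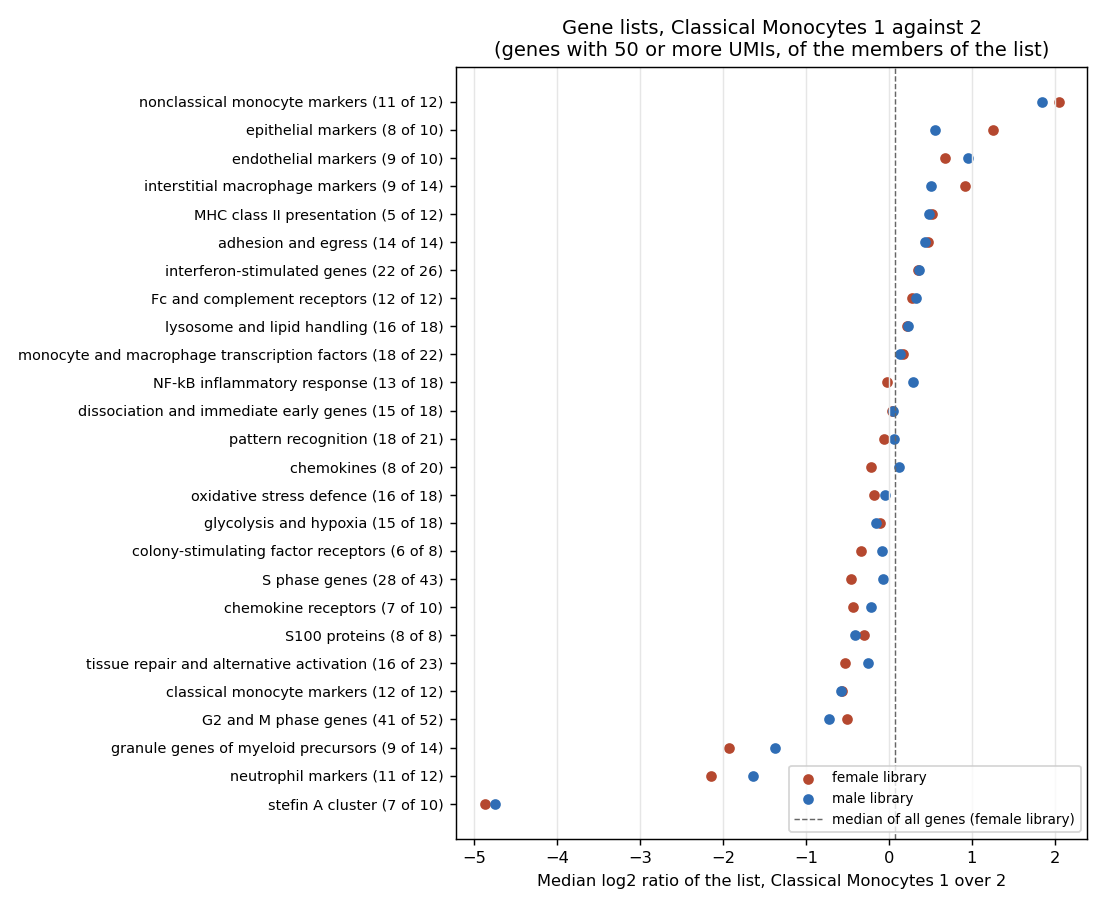
Median log2 ratio of Classical Monocytes 1 over Classical Monocytes 2 for each gene list with at least 5 genes counted, in the female (red) and male (blue) library; the dashed line is the median of all genes in the female library, and brackets give the genes counted of the members. Nonclassical monocyte markers lie at 2.05 and 1.85, most lists lie within 1 of 0, and neutrophil, granule and stefin A genes lie at -1.37 or lower.

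Markers of macrophages that live in the lung interstitium were split. Of 14, 9 had enough UMIs, 2 were at least 2-fold higher and 2 lower, with medians of 0.92 and 0.51. The complement gene C1qb stood at 88.0 and 148 CPM against 25.9 and 24.7, and Apoe, an apolipoprotein of lipid transport, at 4016 and 4446 against 2127 and 2580. The mannose receptor Mrc1 was lower, at 2.58 and 2.45 against 26.7 and 12, and the defining receptors Folr2 and Cd163 were at or near 0 (0 and 0, and 0 and 0.204 CPM). Interstitial Macrophages 1 held 4755 and 4347 CPM of C1qb and 27316 and 29194 of Apoe, far above both monocyte classes.

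For antigen presentation, 5 of 12 genes had enough UMIs and 1 was at least 2-fold higher, with medians of 0.52 and 0.49. That gene was Cd74, the invariant chain of MHC class II, at 94.9 and 115 CPM against 16.8 and 24.7. The class II chains themselves were low, with H2-Aa at 4.19 and 4.70 CPM and H2-Ab1 at 3.38 and 6.13, and their activator Ciita was not detected. Of 12 Fc and complement receptors 2 passed, both higher: Fcgr4, which binds IgG2 antibodies, at 192 and 196 against 69.1 and 82.5, and the inhibitory Fcgr2b at 133 and 126 against 66.3 and 43.7 CPM.

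Among 22 monocyte and macrophage transcription factors 18 had enough UMIs, 2 were at least 2-fold higher (Maf and Batf3) and Cebpe, a factor of granulocyte maturation, was lower. Batf3 stood at 41.3 and 47.6 CPM against 13.9 and 8.84, Maf at 110 and 118 against 46.1 and 56.7, and Cebpe at 19.7 and 14.9 against 45.2 and 39.3. The myeloid master factor Spi1, which encodes PU.1, was near equal at 856 and 818 against 704 and 775 CPM, as was Irf8 at 160 and 173 against 153 and 178. Pou2f2, counted with the nonclassical markers, stood at 470 and 386 against 173 and 201, log2 ratios of 1.44 and 0.94, and missed the 2-fold limit in the male library.

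Few receptor and adhesion genes passed the limit. Beside 1.49% higher and 0.635% lower of all genes, small numbers from short lists are not read as a trait of these lists. Of 14 adhesion and egress genes all were counted and 2 passed, S1pr5 and the integrin Itgax, both higher, the latter at 19.8 and 14.1 CPM against 7.68 and 2.86. Itga4, a chain of the integrin VLA-4, stood at 617 and 518 against 339 and 345 CPM. Of 6 counted receptors for colony-stimulating factors none passed, with Csf1r, the receptor that macrophages need, at 369 and 315 against 192 and 180. Of 8 chemokine genes 2 were lower, Cxcl2 at 79.8 and 21.0 against 176 and 51.0 and Pf4 at 6.77 and 4.70 against 29.0 and 18.7. Of 7 chemokine receptors Cx3cr1 was higher and Cxcr2 lower, of 13 counted genes of the NF-kB response Cxcl2 alone was lower, and of 8 S100 genes S100a8 and S100a9 were lower.

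For several lists no gene passed, which at 1.49% and 0.635% of all genes is also what lists of this size would mostly give, so nothing is read from the counts. None of 22 interferon-stimulated genes passed (medians of 0.35 and 0.36), nor any of 18 pattern recognition genes (-0.06 and 0.06), 15 glycolysis and hypoxia genes (-0.11 and -0.15), 16 oxidative stress genes (-0.18 and -0.05), 15 dissociation and immediate early genes (0.04 and 0.05) or 28 S phase genes (-0.45 and -0.08). Irf7, a factor that amplifies interferon, stood at 224 and 318 CPM against 113 and 194. Of 41 G2 and M phase genes 3 were lower (Mki67, Tacc3, Cenpe), with medians of -0.50 and -0.73. Mki67, a protein of dividing nuclei, stood at 34.0 and 64.9 CPM against 84.8 and 135, and was found in 7.32% and 11.4% of members (2.50% and 4.47% after thinning) against 20.8% and 16.4% of Classical Monocytes 2 (6.93% and 9.25%) and 3.25% and 4.34% of gCap (0.924% and 2.12%). Of 16 tissue repair genes 1 was higher, the lipid receptor Trem2, and 3 lower (Retnlg, Chil3, Mrc1), with medians of -0.53 and -0.26. Thbs1, a matrix glycoprotein, stood at 787 and 621 CPM against 1453 and 1259, and Fn1, fibronectin, at 682 and 673 against 1327 and 1178. Lysosome and lipid genes had 2 of 16 higher, Lgmn and Cd36, with medians of 0.22 and 0.23.

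RNA of other cell types was present at low level. Epithelial markers had 3 of 8 counted genes 2-fold higher than in Classical Monocytes 2 (Ager, Scgb1a1, Krt8), with medians of 1.26 and 0.56. Sftpc, surfactant protein C of alveolar type 2 cells, had a UMI in 90.0% and 96.6% of members and in 87.6% and 94.5% of gCap, and after thinning in 40.6% and 54.8% of members, below the 57.9% and 74.8% of gCap. In the female library 1 cell held 1170 of the 3472 Sftpc UMIs of the class. Of 9 counted endothelial markers 1 was 2-fold higher, with medians of 0.68 and 0.95, and of 2 counted erythroid markers both were. Of alveolar macrophage markers 3 of 14 were counted, of lymphocyte markers 2 of 10 and of mesenchymal markers 2 of 10, and none of these passed in either direction. Of dendritic cell markers 12 genes summed to 69.5 and 54.7 CPM, and of basophil and mast cell markers 10 genes to 24.7 and 18.2. The haemoglobin gene Hbb-bs, counted with the erythroid markers, gave 255 UMIs in the female and 2490 in the male class, of which 226 and 2484 lay in 1 cell of each library.

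Within Classical Monocytes 1 the cells were not alike. Each cell was thinned to 2000 UMIs, and its UMIs of the 12 nonclassical markers were set against its UMIs of Ly6c2 and Ccr2. More of the former were found in 261 of 559 female cells (46.7%, 42.5% to 50.9%) and 145 of 447 male cells (32.4%, 28.1% to 37.0%). In Classical Monocytes 2 the shares were 16.4% and 9.85%, and in Nonclassical Monocytes 93.5% and 81.8%. The class thus lay between the other 2 by this count, and 140 female and 85 male members lay within 1 UMI of equality. The median member had 3 (female) and 2 (male) UMIs of the nonclassical list, and 2 and 4 of Ly6c2 and Ccr2. At such low counts counting error fills the values near 0. Whether the cells form a range or separate kinds therefore cannot be seen from this count. The position of 0 on this count follows from its make-up, a sum of 12 genes against 2, and several of the 12, such as Itgal and Pou2f2, are also found in Classical Monocytes 2, so the shares serve to set the classes side by side and are no proportion of nonclassical cells. The class name is used here as the authors' label.

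**Figure D4:**
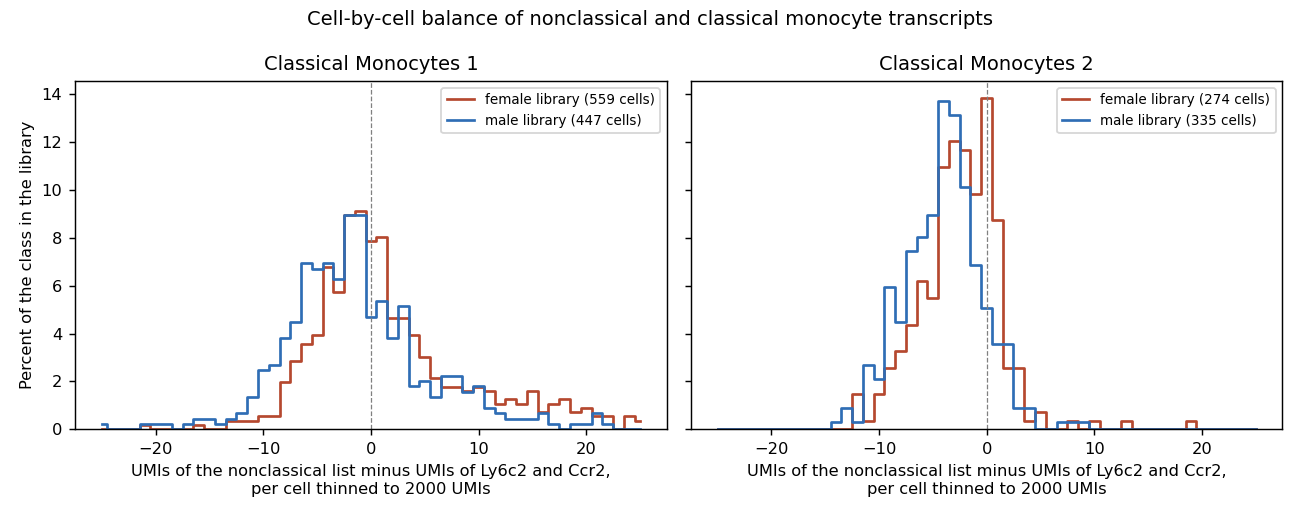
Percent of cells of each class (vertical) by the difference, per cell thinned to 2000 UMIs, of UMIs of 12 nonclassical markers minus UMIs of Ly6c2 and Ccr2 (horizontal), for the female (red) and male (blue) library. Classical Monocytes 1 has a tail to the right of 0, with 46.7% of female and 32.4% of male cells above 0, and Classical Monocytes 2 has 16.4% and 9.85%.

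The members were then ordered by their Ly6c2 and Ccr2 UMIs after thinning, as a description. None was found in 133 female and 46 male cells (23.8% and 10.3%), 1 to 3 in 223 and 162, and 4 or more in 203 and 239 (36.3% and 53.5%). Across these groups, from none to 4 or more, Ace stood at 459, 121 and 27.1 CPM in the female and 359, 108 and 41.8 in the male library. Treml4 stood at 425, 152 and 34.5, and at 293, 160 and 35.6. Nonclassical markers were thus highest where Ly6c2 and Ccr2 were not found.

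Nr4a1 followed that order, at 688, 291 and 199.5 CPM in the female and 424, 222 and 81.6 in the male library. Classical genes ran the other way. F13a1, a clotting factor subunit of monocytes, stood at 33.8, 222 and 507 CPM and at 21.7, 293 and 540. Fn1 stood at 135, 545 and 842 and at 141, 370 and 885, and S100a8 at 658, 2886 and 3665 and at 457, 3037 and 3259. Plac8 had no such order, at 4098, 5361 and 4695 and at 6500, 7102 and 6132 CPM, and Apoe ran with the classical genes, at 3132, 4251 and 4702 and at 3141, 4466 and 5402.

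The count was then repeated on all UMIs of each cell, not thinned, so the cells differ in part from those above, and cells with more nonclassical than Ly6c2 and Ccr2 UMIs were left out of both classes. In the 291 female and 307 male members that remained, 58 genes were 2-fold higher in both libraries in place of 124, and 44 of these were among the 124. Lower genes numbered 36 in place of 53, with 32 shared. Fewer cells leave fewer genes with 50 UMIs, and thinning cells to 2000 UMIs, with no such selection, gave 46 higher and 27 lower. The drop in number therefore does not size the part of the cells left out. Ace then stood at 22.6 and 21.9 CPM against 4.55 and 8.66, and Adgre4 at 51.9 and 50.4 against 15.3 and 10.6. Eno3 stood at 3.03 and 2.98 CPM, against 74.6 and 31.0 with every cell. The selection used the nonclassical list, Ly6c2 and Ccr2, and took out more cells of Classical Monocytes 1, so the lower levels of these genes follow in part from it, and nothing is read from Ly6c2 after it. S100a9 remained at 365 and 257 CPM, with log2 ratios of -4.83 and -4.97.

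The spread over cells was also measured for every gene with enough UMIs. The Fano factor, the variance of UMIs per thinned cell over their mean, is near 1 where only counting spreads the values, and its median over 2453 genes was 1.05 in both libraries. It was at least 2 in both libraries for 48 genes, and for 135 with cells thinned to 4000 UMIs, since it grows with depth. At 2000 UMIs S100a8 had 20.4 and 23.8, and the richest 10% of cells held 59.9% (female) and 59.8% (male) of its UMIs. Chil3 had 9.03 and 4.47 and was found in 50 of 559 and 45 of 447 thinned cells. The histone gene Hist1h2ap, expressed in S phase, had 3.60 and 6.09 and was found in 40 and 43 cells, while Apoe (7.90 and 8.02) and Lyz2 (10.8 and 9.18) were found in at least 92.3% of cells in either library and varied in amount. The other named genes by this rule were Malat1, S100a9, Ifi27l2a, Stfa1 and Plac8.

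The female and male libraries of the class were alike in most genes, with a Pearson correlation of 0.979 over 7604 genes. Of 9141 genes that reached 50 UMIs, 149 (1.63%) were at least 2-fold higher in the female and 57 (0.624%) in the male library, and in Classical Monocytes 2 the numbers were 148 (1.83%) and 70 (0.863%) of 8107. Xist, which silences an X chromosome, stood at 418 CPM in the female and 0.204 in the male library, and the Y-linked Ddx3y at 0 and 55.3, as the labels of sex have it. Of 12 nonclassical markers 4 were at least 2-fold higher in the female library and none lower, with a median log2 ratio of 0.89 beside 0.06 for all genes. Ace had a log2 female to male ratio of 0.85 (0.68 to 1.04), Cx3cr1 0.87 (0.70 to 1.05) and Spn, the sialophorin CD43, 0.90 (0.67 to 1.16), all under the 2-fold limit. Endothelial markers had the same direction, 4 of 10 higher by 2-fold and none lower with a median of 0.89, and their part in the Ace ratio was not tested. In Classical Monocytes 2 the levels of Cx3cr1, Treml4 and Adgre4 given above were also higher in the female library, and that of Ace slightly so. For these genes the direction was thus not particular to Classical Monocytes 1.

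Higher in the male library were Ly6c2, with a log2 female to male ratio of -0.78 (-0.83 to -0.73), Mki67 with -0.93 (-1.19 to -0.68) and the interferon gene Isg15 at 125 CPM (female) and 235 CPM (male). Of 43 G2 and M phase genes 6 were at least 2-fold lower in the female library (median -0.62), and of 23 interferon-stimulated genes 2 (median -0.56). Egr1, an immediate early gene, was the other way, at 237 and 74.7 CPM, and so was Cxcl2. In Classical Monocytes 2 the levels of Ly6c2 and Mki67 given above were also higher in the male library, and that of Cxcl2 in the female. With 1 pool per sex, whether these follow sex, pool or handling cannot be told apart.

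Among the genes at the ends of this comparison were those of other cell types. Leaving aside the listed sex-linked genes, and beside Tsix (17.7 and 0 CPM), which lies at the Xist locus, high in the female library were Mfap4 (45.1 and 4.29), Tcf21 (9.51 and 1.02) and Rasgrp3 (7.74 and 0.817), and mesenchymal markers had 5 of 7 genes 2-fold higher in that library. The lowest, the same genes aside, were Gzma (1.29 and 107), Ccl5 (1.45 and 41.3), Gucy1b1 (1.45 and 8.78), Plet1 (1.77 and 9.39) and Gucy1a1 (5.32 and 21.0). The 524 male Gzma UMIs, a granzyme of lymphocytes, lay in 6 cells, with 276 in 1, and without the cells of the highest doublet scores its log2 female to male ratio turned from -6.02 to 0.77. Without the 8% of cells with the highest doublet scores, 36 genes in place of 149 were 2-fold higher in the female library and 25 in place of 57 lower, and 29 and 17 of these were among those counted with every cell.

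Against the other myeloid classes the distances were larger. Against Transient Macrophages 522 genes (4.98%) were at least 2-fold higher and 998 (9.53%) lower of 10477, with medians of -0.19 and -0.18 for all genes. Interferon-stimulated genes had 19 of 22 higher, with medians of 2.45 and 3.21, and classical markers 8 of 12 higher and 1 lower. G2 and M phase genes had 2 of 50 higher and 17 lower. Plac8 stood at 4577 and 5885 CPM against 50.8 and 43.9.

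Against Alveolar Macrophages 949 genes (11.4%) were higher and 715 (8.58%) lower of 8337, and against Interstitial Macrophages 1, 325 (4.02%) and 584 (7.22%) of 8086. The latter split turned after thinning, to 214 higher and 149 lower, and was 203 against 200 with at least 200 UMIs, so no direction is read from it. Interferon-stimulated genes had 20 of 21 higher than in Alveolar Macrophages, but 2 of 22 higher and 4 lower than in Interstitial Macrophages 1, with medians of -0.43 and -0.08. Lysosome and lipid genes had 2 of 18 higher and 9 lower than in Alveolar Macrophages, and 0 of 16 higher and 8 lower than in Interstitial Macrophages 1.

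Against Neutrophils 3060 genes (36.9%) were higher and 805 (9.72%) lower of 8284, and against Neutrophils Ngp+ 2584 (31.1%) and 638 (7.68%) of 8303. These splits depend on scaling: the medians of all genes were 0.72 and 0.66 against Neutrophils when scaled to total UMIs and -0.16 and -0.22 with TMM factors, which gave 1587 higher and 1942 lower. For Neutrophils Ngp+ TMM gave 872 higher and 1321 lower.

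At day 21 the authors' annotation has a single class Classical Monocytes, of 582 and 314 cells in room air (female, male) and 294 and 279 after hyperoxia. Its levels are given side by side with no test, since the count files name different versions of Cell Ranger for the 2 ages, and age and version cannot be told apart. Ly6c2 stood at 870 and 1190 CPM in room air and 916 and 982 after hyperoxia, and Ccr2 at 796 and 867, and 527 and 671. Cx3cr1 stood at 207 and 218, and 212 and 197, and Adgre4 at 254 and 247, and 231 and 221. Cx3cr1 and Adgre4 thus lay above both day 1 classes in all 4 libraries, and Ly6c2 and Ccr2 lay within or below the range of the day 1 classes.

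Other genes lay outside the range of the day 1 classes in the other direction. S100a8 stood at 575 and 427 CPM in room air and 270 and 664 after hyperoxia, and Stfa1 at 19.5 and 7.27, and 1.17 and 14.0, below both day 1 classes. Chil3, at 430 and 578, and 475 and 953, lay between them. Thbs1 stood at 204 and 159, and 171 and 163, Apoe at 1177 and 834, and 1371 and 1036, and C1qb at 5.27 and 0.831, and 1.41 and 1.84 CPM, all below both day 1 classes. Lyz2 was above both, at 17512 and 18984, and 19396 and 19707 CPM.

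**Figure D5:**
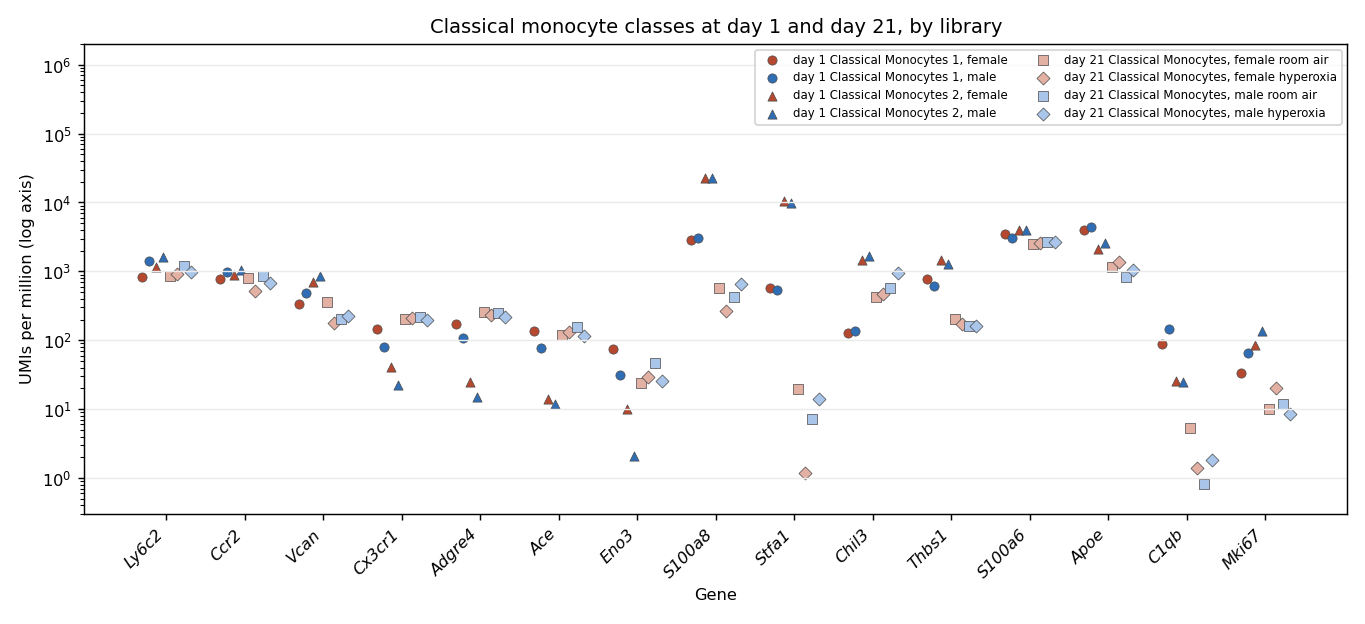
Level of 15 genes in CPM (log axis) in Classical Monocytes 1 (circles) and 2 (triangles) at day 1 and in the day 21 class Classical Monocytes in room air (squares) and after hyperoxia (diamonds); each point is 1 library, red for female and blue for male. The day 21 points lie above Classical Monocytes 2 for Ace (115 to 157 CPM) and Adgre4 (221 to 254 CPM) and below both day 1 classes for S100a8, Stfa1, Thbs1, Apoe and C1qb.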

How the data were processed

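Single-cell RNA counts of 2 day 1 and 4 day 21 lung libraries were used. The values are UMI counts per gene and cell, deposited by the authors without normalization, together with their class for each cell. The count files name Cell Ranger 6.0.0 at day 1 and 7.0.1 at day 21, per the file headers. Cell Ranger 6.0.0, Seurat 4.1.1 and build mm10 are given per the submitters' processing notes, and whether intron reads were counted is not given in the sources used here. The pooling of 3 mice is from the series' design text.

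Counts were summed per class and library and divided by their total (CPM), with exact Poisson intervals. Shares have exact Clopper-Pearson intervals at the 95% level. These cover counting error only. Log2 ratios used a prior count of 2 scaled to depth. A gene counted as 2-fold higher or lower where its log2 ratio passed 1 in both libraries, with at least 50 UMIs over the pair in each. The ranking over all other myeloid classes instead took genes with at least 50 UMIs in Classical Monocytes 1 alone in each library. Classes of under 50 cells entered no count of genes. Shares of cells were also computed after thinning to 2000 UMIs. No test was made. The 2-fold rule was checked on simulated counts for Classical Monocytes 1 against 2, over 8516 genes: 50 of 50 genes set 4-fold higher passed the rule, as did 49 of 50 set 3-fold lower, and 0 of 8316 unaltered genes. The simulated counts held counting error only, with no spread between cells or pools. Altered genes were taken from those with more UMIs than the limit. The check thus describes the rule on such counts, and does not say how many genes passed here through single cells or pools.

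The genes named were the 12 highest and 12 lowest mean ratios against Classical Monocytes 2, the 10 highest over all other myeloid classes, 5 highest and 5 lowest female to male ratios (listed sex-linked genes apart), and the 10 highest Fano factors, leaving out mitochondrial, ribosomal, haemoglobin and immunoglobulin genes and unnamed models, and members of 33 gene lists. Some genes under these rules are not reported here. Hbb-bs and single cells with many UMIs were picked after their values were seen. The members and lists were chosen with earlier results of these data known.

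Doublets were scored with Scrublet (scanpy 1.11.5). Its automatic limit marked 6.60% of female and 0.0887% of male barcodes and so had not worked in the male library. The 8% of barcodes with the highest scores in each library were left out as an alternative. This cut is not a call of doublets. In the male library it took 23 of 24 Mast Basophils (95.8%) and 30.9% of NK Cells, and in the female library 0 of 32 Mast Basophils. How many of the cells left out were doublets was not tested. Other alternatives were TMM (edgeR 4.0.16) and median-of-ratios factors as in DESeq2 1.42.0, other count limits, a prior count of 10, a stricter cell filter (at least 1000 genes, at most 10% mitochondrial UMIs), thinning and single libraries. Leaving out cells with more nonclassical than Ly6c2 and Ccr2 UMIs was chosen after seeing the data. Python 3.11.15, numpy 2.4.6, scipy 1.17.1 and R 4.3.3 were used. Promoters are from RefSeq, GRCm38.p6, and gene positions from GENCODE on GRCm38, which matched 32158 of 32285 genes.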

Additional observations from a re-analysis of the deposited data

Results flagged for a closer look

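For 6 genes the ratio of Classical Monocytes 1 over Classical Monocytes 2 passed 2-fold in opposite directions in the female and male libraries. The difference between the libraries was not tested, since each sex has 1 library. On the log2 scale Gzma had -4.40 (female) and 7.23 (male), and Ccl5 had -5.01 and 5.07, both genes of cytotoxic lymphocytes. In Classical Monocytes 2 of the female library 120 of 125 Gzma UMIs and all 210 Ccl5 UMIs lay in 1 cell, and in Classical Monocytes 1 of the male library 276 of 524 and 117 of 202 did. Pdzd2 had -1.54 and 3.44, AW112010 had -1.89 and 1.13, and Itm2a had -1.27 and 1.86, with 57 of 133 Pdzd2 UMIs of the male Classical Monocytes 1 in 1 cell. Axl, a receptor tyrosine kinase for dying cells, had -1.01 and 1.15, and its UMIs were spread over more cells, 103 and 87 in Classical Monocytes 1 and 48 and 33 in Classical Monocytes 2, with at most 13 in 1 cell.

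Barcodes that the authors gave no class held 20.4% of the Ly6c2 UMIs of the female and 14.2% of those of the male day 1 library. They enter no comparison.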

How the results depend on the processing

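No paired test was made, since the classes were formed from the genes compared and were seen in 2 pools. Female against male has 1 library on each side and no pairs. Class ratios were formed within each library and so are matched by library. Of the values that answer a comparison, 84 stayed within their spread or within 1.5 times under another setting and 69 did not, and of those of single genes 289, with 115 moved and 2 reversed. The cause was not tested unless the setting's construction shows it. With 1 library the 2-fold rule has to hold in 1 library only, so counts are larger.

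Against Classical Monocytes 2, the 124 higher genes became 361 with no filter on low counts, 54 with at least 200 UMIs, 46 after thinning, 58 without cells of nonclassical excess and 243 to 294 with 1 library, and the 53 lower became 165, 31, 27 and, with 1 library, 120 to 158. Against Transient Macrophages, no filter gave 847 higher and thinning 302 higher and 508 lower. Against Neutrophils, TMM gave 1587 higher and 1942 lower, median-of-ratios factors 1674 and 1788, no filter 4639 and 1285, at least 200 UMIs 1490 and 527, and thinning 1322 higher. Against Neutrophils Ngp+, TMM gave 872 and 1321, median-of-ratios factors 875 and 1314, at least 200 UMIs 1487 and 295, and thinning 1210 and 198. Lower genes there were 1348 with no filter, 421 without the highest doublet scores and 742 to 1042 with 1 library. Higher genes were 79.2% of those past 2-fold against Neutrophils, 45% with TMM and 48.4% with median-of-ratios factors, and 80.2% against Neutrophils Ngp+, 39.8% with TMM. Against Alveolar Macrophages, no filter gave 1702 and 1190, at least 200 UMIs 544 and 385, and thinning 422 and 218. Against Interstitial Macrophages 1, at least 200 UMIs gave 203 and 200, thinning 214 and 149, no filter 1702 lower, and 1 library 510 to 524 higher and 810 to 1161 lower. Female against male, no filter gave 953 higher and 536 lower, at least 200 UMIs 35 and 18, and a prior count of 10 gave 90 and 36. Leaving out the highest doublet scores gave 36 and 25, thinning 42 and 22, and no cells of nonclassical excess 94 and 35.

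The share of Classical Monocytes 1 was 3.74% (female) and 3.09% (male) of every barcode and 14.3% and 11.3% of myeloid cells. Thinning gave 54.6% and 68.9% of cells with a Ly6c2 UMI and 64.6% and 74.5% with a Ccr2 UMI. At 4000 UMIs, 135 genes had a Fano factor of at least 2. Cd300e reversed to -0.43 in the male library without cells of nonclassical excess, and Gzma to 0.77 (female over male) without the highest doublet scores. Depth limits genes under 50 UMIs per pair, for which no ratio was counted.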
